A study of Rhodotorula toruloides with 9 samples.

Results

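Glycerol-specific transcripts were followed here in the red basidiomycete yeast Rhodosporidium toruloides IFO0880. They are the 154 genes, of 8486 numbered gene models, that were chosen by their measured values: a mean FPKM on glycerol of at least 10, and of at least 3 times both the mean on d-galUA and the mean on d-glc. FPKM is the abundance of a transcript scaled by its length and by the reads mapped in its library. The members are 1.81% of the numbered gene models. Since the levels on glycerol chose these genes, their excess on glycerol is a description and was not tested. Of the 157 genes that met the thresholds, 3 were set aside, the MAE1 ortholog RTO4_12761 and the GAT-1 homologs RTO4_13727 and RTO4_13731, with mean glycerol FPKM of 492, 474 and 241.

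The study grew strain IFO0880 in yeast nitrogen base with 1 carbon source per culture, glycerol, D-galacturonic acid (d-galUA) or D-glucose (d-glc), and sequenced mRNA from 9 libraries. By the methods of the study, 1 starter culture was divided into 3 cultures per carbon source, so the spread between libraries is that between parallel cultures of 1 starter, and its text places the harvest both in log phase and at the onset of stationary phase. No strain or genotype other than IFO0880 was involved. Estimated depth was 25.8 to 51.9 M mapped reads per library, with a median of 35.2.

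The labels name 2 glycerol, 3 d-galUA and 4 d-glc libraries. The glycerol means in the study's own table are averages that include the library labelled d-glc replicate 4. The rule that chose the members counts it there. Its correlation of log2(FPKM + 1) across genes was at least 0.983 with the libraries labelled glycerol and at most 0.832 with d-glc replicates 1 to 3. The glycerol mean below therefore holds glycerol replicates 1 and 2 and the library labelled d-glc replicate 4, in this order. The d-glc mean holds d-glc replicates 1 to 3. Why that library carries its label is not given in the sources used here. Grouped strictly as labelled, 78 genes met the rule, 77 of them among the 154. With that library left out of every mean, 151 genes met it, 148 of them among the 154.

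In yeasts, glycerol enters the cell through a proton symporter, is phosphorylated by glycerol kinase and is oxidized by a mitochondrial glycerol 3-phosphate dehydrogenase to dihydroxyacetone phosphate. From there carbon runs down through lower glycolysis to pyruvate and acetyl-CoA, or up through gluconeogenesis to hexose phosphates. In Saccharomyces cerevisiae, glucose represses many genes for the use of other carbon sources, and sensors and kinases report the sugar supply to the nucleus. R. toruloides is known for storing carbon as lipid.

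The members made up a larger share of the transcripts on glycerol than on d-galUA or d-glc. Together they held 8.33%, 8.88% and 8.48% of the deposited TPM, a length-corrected share of all transcripts, in the glycerol group, a mean of 8.56 ± 0.287% (SD, n = 3). On d-galUA the same genes held 1.05 ± 0.0278% and on d-glc 0.702 ± 0.0355% (SD, n = 3 each). The 5 members with the highest glycerol means held 41.7% of the members' glycerol TPM. A single member, RTO4_11990, held 1.89 ± 0.29% on glycerol, against 0.249 ± 0.0131% on d-galUA and 0.0846 ± 0.00628% on d-glc. Without it the share on glycerol was 6.68%. The shares come from the values that chose the members.

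**Figure D1:**
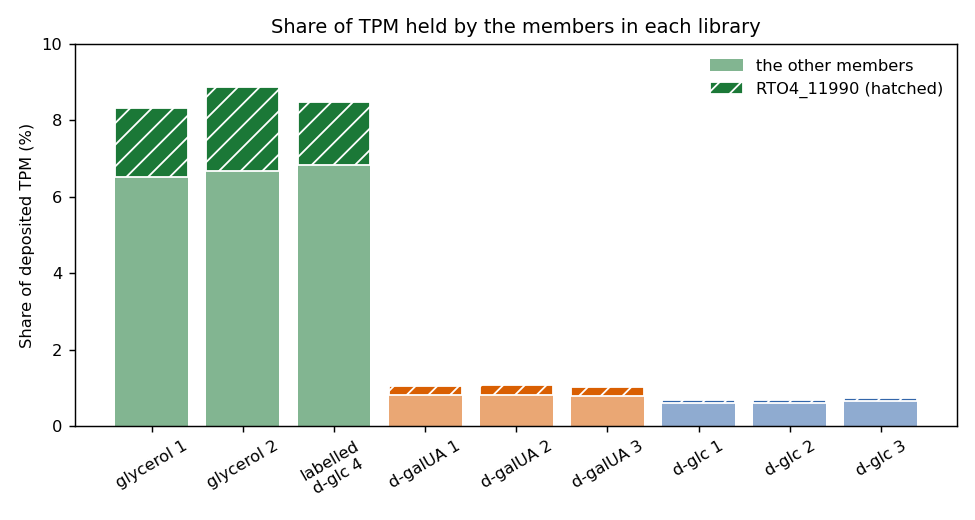
Share of the deposited TPM (%, y axis from 0) held by the 154 members in each of the 9 libraries, with the part of RTO4_11990 hatched at the top of each bar. The 3 libraries of the glycerol mean, the one labelled d-glc replicate 4 included, sit between 8.33% and 8.88%, and the d-galUA and d-glc groups average 1.05% and 0.702%.

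Mean FPKM on glycerol ranged over the members up to 12809, from a lowest mean of 10.4, with a median of 89.1. The same genes had a median of the means of 11.4 on d-galUA and 10.7 on d-glc. On glycerol, 24 members had a mean under 20, 55 had 20 to under 100, 54 had 100 to under 500, 6 had 500 to under 1000 and 15 had 1000 or more. Among the 100 highest glycerol means of all genes, 14 were members. The ratio of the glycerol mean to the higher of the other 2 means ran to 114.1, with a median of 5.0 over the 151 members that had a ratio. It lay under 4 in 53 members, from 4 to under 10 in 63, from 10 to under 20 in 15 and at 20 or more in 20. The remaining 3 members were listed at 0 in all d-galUA and d-glc libraries. The same rule turned to the other carbon sources chose 120 genes on d-galUA and 148 on d-glc, with median ratios of 5.72 and 6.65. A ratio of 10 or more was found in 23.2% of the glycerol genes with a ratio, 28.3% of the d-galUA genes and 37.7% of the d-glc genes.

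In the copy of the study's gene table used here, which holds 1999 genes, 33 members had a row and 5 had an S. cerevisiae ortholog. The other members are given by their identifiers alone, and no function is assigned to them.

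RTO4_11990, listed as the ortholog of RGT2 and SNF3, was the second most abundant transcript of all genes on glycerol. RGT2 and SNF3 encode glucose sensors of the S. cerevisiae plasma membrane, relatives of hexose transporters that signal extracellular glucose. Its model spans positions 186018 to 188381 of scaffold 2 (minus strand) in the version 4 annotation of the strain. Its FPKM was 12680, 14730 and 11030 in the glycerol group, 1692, 1857 and 1711 on d-galUA and 653, 566 and 615 on d-glc. The 3 carbon sources did not overlap, and the library labelled d-glc replicate 4 was the lowest of the glycerol group but far above every other library. The ratio of the glycerol mean to the d-galUA mean was 7.31.

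RTO4_15438 was listed as the ortholog of the alcohol dehydrogenases ADH1, ADH2, ADH3 and ADH5, which interconvert ethanol and acetaldehyde. Its FPKM was 1772, 1389 and 1596 in the glycerol group, 282, 206 and 162 on d-galUA and 120, 140 and 129 on d-glc. The glycerol libraries were all above the rest, and its glycerol mean was 7.33 times the d-galUA mean. Its model spans 812673 to 814209 of scaffold 7 (plus strand).

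RTO4_12971 was listed as the ortholog of YML131W, a gene of the medium-chain dehydrogenase and reductase family. It had an FPKM of 1002, 941 and 1208 in the glycerol group, 227, 239 and 233 on d-galUA and 148, 153 and 205 on d-glc. Its glycerol mean was 4.504 times that on d-galUA, and its model spans 563273 to 565394 of scaffold 3 (minus strand).

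RTO4_11952 was listed as the ortholog of YOR388C (FDH1), the NAD-dependent formate dehydrogenase that oxidizes formate to carbon dioxide. Its FPKM was 426, 467 and 399 in the glycerol group, 126, 121 and 91.3 on d-galUA and 5.419, 11.43 and 9.998 on d-glc. The levels stood in 3 separate steps, with d-galUA between glycerol and d-glc. Its model spans 104550 to 106649 of scaffold 2 (minus strand).

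RTO4_15544 was listed as the ortholog of VID24 and YGR066C, substrate receptors of the ubiquitin ligase that marks gluconeogenic enzymes for degradation in S. cerevisiae. It had an FPKM of 180, 167 and 189 in the glycerol group, 57.0, 53.0 and 47.7 on d-galUA and 41.1, 61.3 and 49.1 on d-glc. The glycerol libraries did not overlap the others, while those of d-galUA and d-glc did overlap each other. Its model, at 1054992 to 1057091 of scaffold 7 (plus strand), overlaps RTO4_15543 by 206 bp. Both models are on the same strand, so reads in the overlap cannot be assigned to 1 of them.

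**Figure D2:**
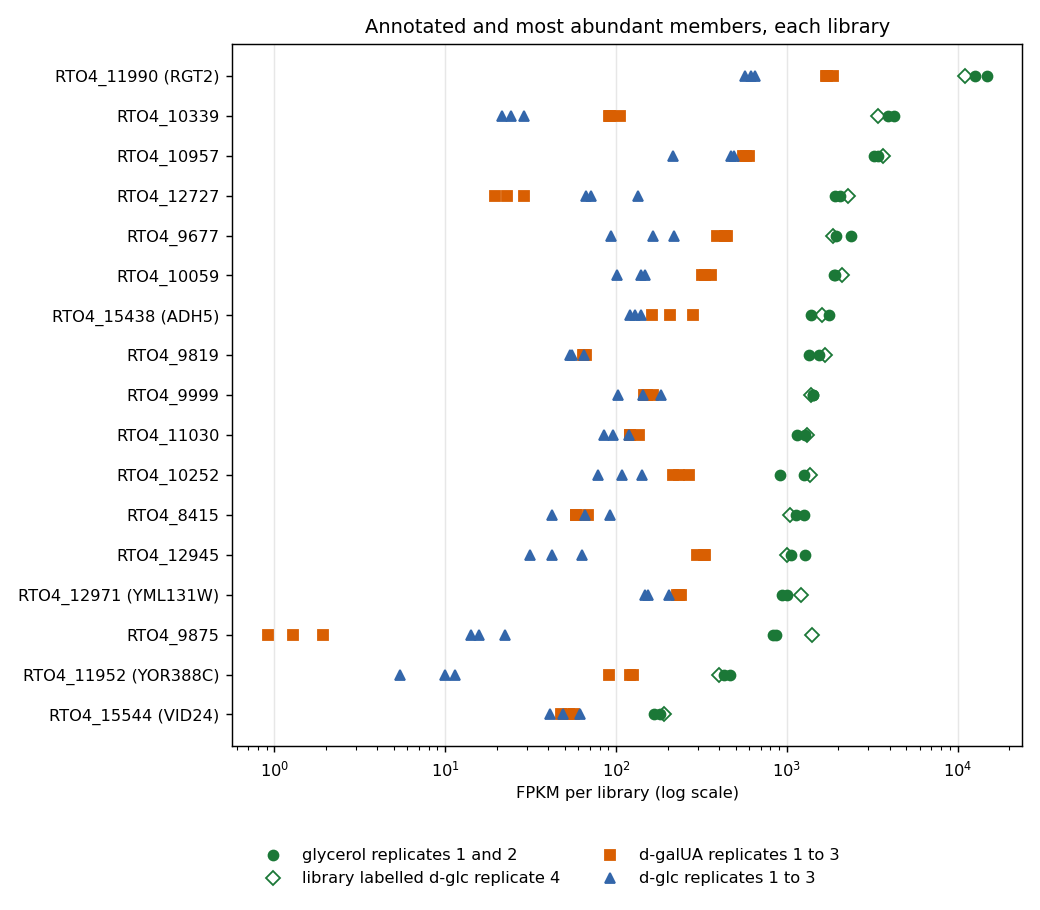
FPKM per library (log scale, x axis) of the 15 members with the highest glycerol means and the other annotated members, ordered by glycerol mean, with the first ortholog name in parentheses. Every glycerol point, and the open diamonds of the library labelled d-glc replicate 4, lie to the right of all d-galUA and d-glc points of the same gene, and the order of d-galUA and d-glc changes between genes.

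Most of the other abundant members have no annotation here. RTO4_10339 had an FPKM of 3927, 4210 and 3417 in the glycerol group, 90.3, 91.9 and 105 on d-galUA and 21.4, 24.3 and 28.7 on d-glc. Its glycerol mean ranked 9 among all genes and was 40.2 times that on d-galUA. RTO4_10957 had 3394, 3247 and 3654 in the glycerol group, 555, 573 and 602 on d-galUA and 468, 214 and 487 on d-glc. The d-glc level of this gene was uneven, with d-glc replicate 2 at less than the level of either other d-glc library. RTO4_12727 had 2054, 1923 and 2274 in the glycerol group, 19.4, 22.9 and 29.0 on d-galUA and 70.9, 66.9 and 135 on d-glc. Here d-galUA, not d-glc, was the lowest carbon source.
RTO4_9677, RTO4_10059, RTO4_9819, RTO4_9999, RTO4_11030, RTO4_10252, RTO4_8415, RTO4_12945 and RTO4_9875 had glycerol means of 1028 to 2053. In each of them the 3 glycerol libraries lay above all others. RTO4_9999 was the most even, at 1429, 1428 and 1384. RTO4_9875 was the least even, at 824 and 865 in the libraries labelled glycerol and 1394 in the one labelled d-glc replicate 4.

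The widest separation was that of RTO4_9137. Its FPKM was 709, 724 and 434 in the glycerol group, 0.636, 0.556 and 0.997 on d-galUA and 4.88, 3.30 and 8.18 on d-glc, a ratio of 114.1 to the higher other mean. RTO4_10360 followed, with 404, 390 and 498 in the glycerol group, 4.49, 6.52 and 5.51 on d-galUA and 3.35, 2.52 and 5.40 on d-glc. Its ratio was 78.1. RTO4_9875 had 0.916, 1.93 and 1.29 on d-galUA and 14.1, 15.7 and 22.2 on d-glc, and a ratio of 59.3. In RTO4_9875 every d-galUA library was also below every d-glc library, which was not so in RTO4_10360.
RTO4_8562 and RTO4_16667 had ratios of 40.9 and 38.7, with glycerol means of 131 and 40.3. RTO4_11113, RTO4_8808, RTO4_10117 and RTO4_9271 had glycerol means of 111 to 202 and means of 5.94 or less on either other carbon source. RTO4_14271 was more abundant throughout, with 912, 1053 and 950 in the glycerol group, 39.8, 45.4 and 37.4 on d-galUA and 16.24, 8.497 and 16.7 on d-glc.

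Replicates of the glycerol group were close for most members. The median coefficient of variation over the 3 libraries was 10.3% for the members and 8.7% for the 5955 genes with a glycerol mean of 10 or more. In 151 members each glycerol library was above all 6 d-galUA and d-glc libraries. The rule sets the glycerol mean at 3 times both others or more, so this follows in large part from the choice. An FPKM above 0 in every library was found in 147 members. A coefficient above 50% was found in 4 members. RTO4_11536 had 172, 68.2 and 0 in the glycerol group and was listed at 0 elsewhere. RTO4_15913 was listed at 0, 40.7 and 0 in the glycerol group and at 0 elsewhere, so a single library carries it. RTO4_12687 had 3.01, 3.27 and 28.2, and rests on the library labelled d-glc replicate 4. RTO4_16308 had 16.1, 8.13 and 27.8. The other member listed at 0 outside the glycerol group, RTO4_15653, had 20.99, 11.65 and 31.6. An FPKM of 0 in these tables can be a failed estimate, so no ratio is given against it.

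How far the choice holds in libraries that took no part in it was read by leaving out 1 library at a time, choosing genes again from the other 8, and then reading the library left out. Without the library labelled d-glc replicate 4, 151 genes were chosen, and 141 of them (93.4%) had in that library at least 3 times both other means. Its FPKM had a median ratio of 1.01 to glycerol replicates 1 and 2 and of 9.67 to d-glc replicates 1 to 3, the last over the 147 genes with a d-glc value above 0. Glycerol replicates 1 and 2 and d-glc replicates 1 to 3 took part in choosing these genes, so the distance between those 2 sets follows from the choice. Over all 9 libraries the share that kept the ratio ran from 88.8%, when glycerol replicate 2 was left out, to 98.1%, when d-galUA replicate 3 was left out. The members lost without the library labelled d-glc replicate 4 were RTO4_12687, RTO4_12896, RTO4_13659, RTO4_14013, RTO4_14724 and RTO4_9152. RTO4_9152, for example, had 46.7 and 44.8 in the libraries labelled glycerol and 80.5 in that library.

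**Figure D3:**
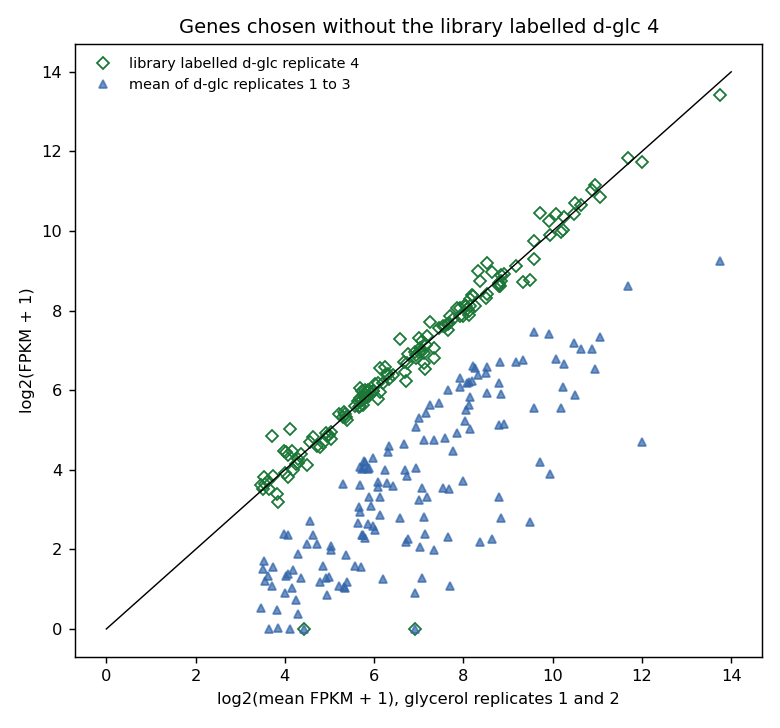
The 151 genes chosen without the library labelled d-glc replicate 4, with log2(mean FPKM + 1) in glycerol replicates 1 and 2 on the x axis and, on the y axis, log2(FPKM + 1) in that library (open diamonds) and in the mean of d-glc replicates 1 to 3 (triangles). The diamonds follow the line of equal values, with a median ratio of 1.01 and 2 genes at 0. The triangles lie below the line, which the choice of the genes fixed in advance.

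The members just inside the ratio of 3 were RTO4_9861 (3.03), RTO4_10356 (3.04) and RTO4_14724 (3.05). Just outside it were RTO4_11060 (2.9999), RTO4_12108 (2.99) and RTO4_10698 (2.98). A further 14 genes met the ratio with a glycerol mean of 5 to under 10.

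What the rule did not use is the difference between d-galUA and d-glc, and the members were compared there. The test was limma on log2(FPKM + 1) with all 9 libraries in 1 fit and Benjamini-Hochberg adjustment over 8479 genes. A gene was called at an adjusted p under 0.05 if the means differed at least 2-fold and 1 of them reached an FPKM of 5. Among the 154 members, 34 (22.1%) were higher on d-galUA, against 8.24% of all genes tested, and 20 (13.0%) were lower, against 7.44% of all genes. The remaining 100 were not called, and 37 of these were under an FPKM of 5 on both carbon sources and could not be. Among genes with an FPKM of at least 5 on either, 29.1% of 117 members were higher and 17.1% lower, against 9.81% and 8.85% of 7126 genes. The excess of lower members depends on the 2-fold minimum. Without that minimum, 55 of the 154 members were higher and 31 lower, against 1798 and 2006 of the 8479 genes. The share of members that were lower was then below that of all genes. The median log2 difference was 0.33 over the members and -0.0032 over all genes tested. Means were higher on d-galUA in 101 members, lower in 50 and equal at 0 in 3. The mean of d-glc enters both the choice and this difference, as does that of d-galUA, and no value is given for how much the choice alone would give. With the libraries grouped as labelled, limma called 0 members higher and 16 lower, and at an unadjusted p under 0.05 there were 0 and 24. That grouping puts the library labelled d-glc replicate 4 in d-glc, and it was above d-glc replicates 1 to 3 in 152 members. The rule counts it in the glycerol mean, so these counts follow in large part from the choice. The same holds for the values of members as labelled below. The test of Ballgown, run on the 6 d-galUA and d-glc libraries, called 30 higher and 19 lower.

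The 34 members that were higher on d-galUA had log2 fold changes of 0.89 to 3.55, with a median of 1.57. Their d-galUA libraries were all above their d-glc libraries, which follows in large part from the call. Their median glycerol mean was 128. RTO4_11952, the formate dehydrogenase ortholog, rose most, by 3.55 on the log2 scale (SE 0.22, adjusted p = 5.47e-07 from limma). RTO4_15329 had 202, 213 and 234 in the glycerol group, 24.0, 23.3 and 21.3 on d-galUA and 0.949, 1.15 and 1.28 on d-glc. Its log2 fold change between d-galUA and d-glc was 3.49 (SE 0.11, adjusted p = 2.81e-09 from limma), and it overlaps both neighbouring models, RTO4_15328 and RTO4_15330. RTO4_12945 had 297, 332 and 329 on d-galUA and 31.4, 42.3 and 63.3 on d-glc, a log2 fold change of 2.84 (SE 0.21). The levels of these 3 genes fell in the order glycerol, d-galUA, d-glc, with no overlap between the carbon sources.
RTO4_14977 and RTO4_11322 were lower in abundance, with d-galUA means of 7.88 and 13.4 and log2 fold changes of 2.32 each. The abundant sensor ortholog RTO4_11990 rose by 1.52 on d-galUA (SE 0.14, adjusted p = 9.08e-06 from limma). So were RTO4_10339 by 1.91, RTO4_9677 by 1.49, RTO4_10059 by 1.39 and RTO4_10252 by 1.16. Without d-glc replicate 1 the last fell to 0.94 and was not called. With the libraries grouped as labelled, the log2 fold change of RTO4_11952 was 2.21 and that of RTO4_11990 was 0.48, and neither was called.

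The 20 members that were lower on d-galUA had log2 fold changes of -5.20 to -1.07, with a median of -2.28. Their d-galUA libraries were all below their d-glc libraries, which again follows in large part from the call. Their median glycerol mean was 221. RTO4_9135 had 617, 668 and 417 in the glycerol group, 1.59, 1.98 and 2.35 on d-galUA and 114, 91.6 and 119 on d-glc. It fell most, with a log2 fold change of -5.20 between d-galUA and d-glc (SE 0.18, adjusted p = 7.16e-09 from limma). RTO4_8662 had 755, 772 and 630 in the glycerol group, 8.28, 9.22 and 10.2 on d-galUA and 111, 222 and 190 on d-glc. For this gene the log2 difference was -4.05 (SE 0.22, adjusted p = 1.84e-07 from limma). Both were at an intermediate level on d-glc and near their lowest on d-galUA.
RTO4_16445 and RTO4_13967 had log2 fold changes of -3.25 and -3.10, with glycerol means of 120 and 194. RTO4_9136 was listed at 0 in the 3 d-galUA libraries, against 13.6, 10.8 and 16.0 on d-glc, and was called lower (limma adjusted p = 7.85e-09). That call rests on values of 0, which can be failed estimates, and the log2 difference of RTO4_9136 ran from -7.06 to -1.87 over the alternatives. RTO4_9875 and RTO4_12727 had log2 fold changes of -2.95 and -1.83. With the libraries grouped as labelled these were larger in size, -4.51 and -3.01, and neither was called (limma adjusted p = 0.0572 and 0.0856). RTO4_9135, RTO4_8662, RTO4_9136, RTO4_16445 and RTO4_13967 were called with that grouping too.

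**Figure D4:**
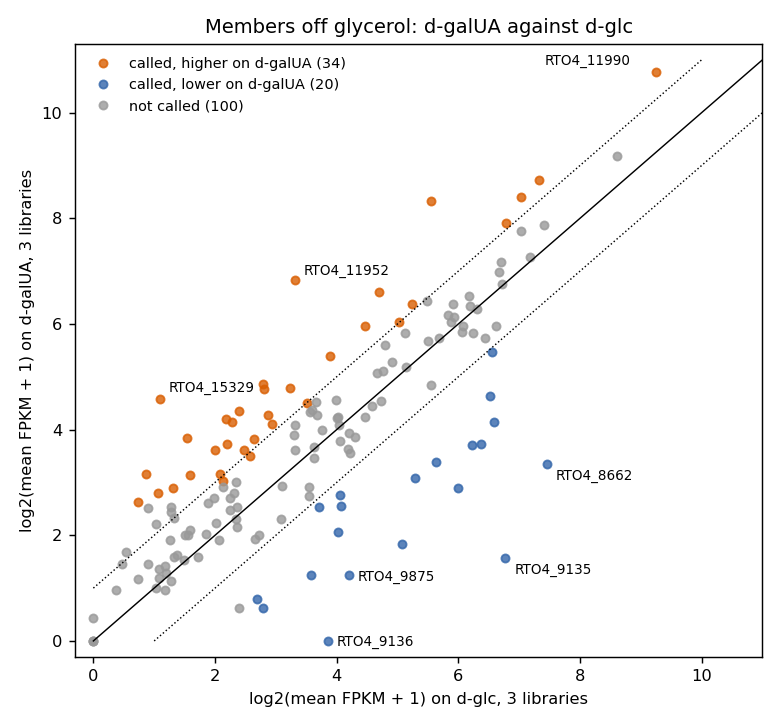
Mean level of each of the 154 members on d-galUA (y axis) against d-glc (x axis), both as log2(mean FPKM + 1) over 3 libraries, with the 34 members called higher and the 20 called lower on d-galUA in colour and the 100 not called in grey. The solid line marks equal levels and the dotted lines a difference of 1, and RTO4_11952 and RTO4_15329 stand furthest above them and RTO4_9135 and RTO4_8662 furthest below.

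Among the 100 members not called, the log2 difference ran from -1.77 to 1.63, with a median of 0.25. Every d-galUA library was above every d-glc library in 39 of them, and below in 14. Over all 8479 genes tested, limma called 1798 higher and 2006 lower without the fold criterion, against 699 and 631 with it. A low adjusted p short of the fold was thus common. Among the members not called, an adjusted p under 0.05 was found for 47, which fell short of the fold or the minimum FPKM. The alcohol dehydrogenase ortholog RTO4_15438 was one, with a log2 fold change of 0.70 on d-galUA (SE of 0.18, limma adjusted p = 0.00863), and the YML131W ortholog RTO4_12971 another, with 0.48 (SE 0.14, limma adjusted p = 0.0147). With the libraries grouped as labelled both signs turned, to -0.21 for RTO4_15438 and -0.23 for RTO4_12971. For RTO4_15544 the difference was 0.07 (SE 0.14, limma adjusted p = 0.696), and as labelled -0.40.

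The members lay on 17 scaffolds, 22 of them on scaffold 1, 18 on scaffold 3 and 14 on scaffold 2. In the order of gene models, 27 members stood next to another member, in 12 pairs and 1 group of 3. That was 17.5% of the members, beside 15% of the 120 genes chosen by the same rule on d-galUA and 11.5% of the 148 on d-glc. Of the 14 neighbouring pairs, 7 were on the same strand, 5 were divergent and 2 convergent. A total of 37 members (24.0%) overlapped another gene model, 17 of them a model on the other strand, beside 24.3% of all numbered models. Whether reads were counted by strand is not given in the sources used here. The median span was 1945 bp for the members and 1783 bp for all numbered models.

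The group of 3 was RTO4_9135, RTO4_9136 and RTO4_9137 on scaffold 1, from 1828891 to 1834944. RTO4_9136 overlaps RTO4_9135 by 214 bp and RTO4_9137 by 211 bp. All 3 were lower on d-galUA than on d-glc, RTO4_9137 with a log2 difference of -1.84 (SE 0.28, adjusted p = 0.000323 from limma). Without d-glc replicate 3 that gene fell by 1.55 and was not called. RTO4_9135 and RTO4_9137 also shared a lower level in the library labelled d-glc replicate 4, at 417 and 434, than in the libraries labelled glycerol, at 617 to 668 and 709 to 724. RTO4_9136 had 102, 109 and 103 in the glycerol group. Reads in the overlaps can be assigned to either model.

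Neighbours often differed in level. RTO4_10957 and RTO4_10958, 10 bp apart on the minus strand of scaffold 14, had glycerol means of 3432 and 446. Both had their lowest d-glc value in d-glc replicate 2, at 214 and 25.5. RTO4_14041 and RTO4_14040 on scaffold 5 had glycerol means of 478 and 11.2, and RTO4_15916 and RTO4_15915 on scaffold 8 had 435 and 12.6. RTO4_15570 and RTO4_15571 are divergent, 242 bp apart on scaffold 7, with glycerol means of 309 and 151.
RTO4_13154 and RTO4_13155 on scaffold 3 overlap by 90 bp and were both called higher on d-galUA, by log2 fold changes of 1.66 and 2.04, though Ballgown's test gave the first an adjusted p of 0.0563. RTO4_11712 and RTO4_11713 on scaffold 17 had glycerol means of 192 and 204, and the second was called higher on d-galUA, by 1.03, though not without d-glc replicate 1 (0.79). Its sign turned under the grouping as labelled, to -0.029. RTO4_10653 and RTO4_10654 face each other on scaffold 13, with glycerol means of 271 and 18.4.
The last pairs were RTO4_12109 with RTO4_12110 and RTO4_12263 with RTO4_12264 on scaffold 2, RTO4_11032 with RTO4_11033 on scaffold 14, RTO4_11081 with RTO4_11082 on scaffold 15, and RTO4_11616 with RTO4_11617 on scaffold 17. Their glycerol means ran from 16.4 to 307.

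The genes for glycerol entry were set beside the members. None of the 7 genes of the list for glycerol entry and gluconeogenesis (orthologs of GUT1, GUT2, STL1, FBP1, PCK1, PYC1, PYC2 and TPI1) was a member. Members are 1.81% of the numbered gene models, so their absence from a list of 7 genes says little. The 3 lists hold only genes with an ortholog name in the copy of the study's table. In that copy 33 of the 154 members had a row and 5 an ortholog, so most members could not enter a list. On glycerol against d-galUA, 0 rose and 5 fell, where 7.7% of all genes were higher and 6.95% lower. GUT2, the mitochondrial glycerol 3-phosphate dehydrogenase, had 28.4, 28.4 and 35.0 in the glycerol group, 411, 427 and 377 on d-galUA and 42.2, 59.6 and 45.5 on d-glc. GUT1, glycerol kinase, had 49.0, 45.1 and 54.2 in the glycerol group, 129, 119 and 118 on d-galUA and 23.7, 34.3 and 24.5 on d-glc. Against d-glc 0 of the 7 were called, where 9.0% of all genes were higher and 9.81% lower. GUT1 was nearest, with a log2 difference of 0.84 (SE 0.14, limma adjusted p = 0.000514) short of the 2-fold minimum, and it was called without d-glc replicate 2, at 1.00. At an unadjusted p under 0.05, 1 gene of the list was higher on glycerol than on d-galUA, TPI1 (log2 0.31), and against d-glc 1 was higher and 4 were lower, all under 2-fold.
The list for alcohol and aldehyde conversion to acetyl-CoA holds 9 genes, 1 of them the member RTO4_15438. The member was left out of the counts, since the rule used these comparisons. A gene at 3 times both other means could therefore not be counted as higher. Of the other 8, limma called 0 higher and 4 lower against d-galUA, and 4 higher and 2 lower against d-glc. Over all genes, 7.7% were higher and 6.95% lower against d-galUA, and 9.0% and 9.81% against d-glc. Lower against d-galUA were the ADH6 and ADH7 orthologs RTO4_13562 (log2 -5.61), RTO4_13947 (-5.57) and RTO4_13554 (-2.09) and the ACH1 ortholog RTO4_13797 (-1.16). Against d-glc, RTO4_13562, RTO4_13554, RTO4_14597 and RTO4_12042 were higher, and RTO4_13947 and RTO4_13797 lower. RTO4_14597 (log2 0.62, limma adjusted p = 0.00115) and RTO4_12042 (log2 0.55, limma adjusted p = 0.0356) exceeded their d-galUA levels on glycerol by less than 2-fold. The acetyl-CoA synthetase ortholog RTO4_14597 had a mean of 612 ± 47.0 on glycerol, 398 ± 21.03 on d-galUA and 112 ± 15.2 on d-glc, and the aldehyde dehydrogenase ortholog RTO4_12042 had 642 ± 23.4, 439 ± 31.4 and 154 ± 48.3 on the same carbon sources (SD, n = 3 each). Of the 7 genes for fatty acid activation and beta-oxidation, none was a member, under the same limits of the lists and of the small share of members. The orthologs of FOX2, FAA2 and POT1 rose against d-glc. Against d-galUA limma called 0 of the 7. The same 4 genes had an unadjusted and an adjusted p under 0.05 and differed less than 2-fold, FOX2 (log2 0.85) and POT1 (0.84) upwards and CAT2 (-0.83) and FAT1 (-0.46) downwards. With the libraries grouped as labelled, 0 genes of the 3 lists were called by limma against d-glc in either direction, with 4 higher and 3 lower at an unadjusted p under 0.05.

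A stretch of scaffold 14 held several members between GUT1 and GUT2, and was chosen after its values were seen. From the start of GUT1 to the end of GUT2, over 45271 bp, lie 16 other gene models, 4 of them members. RTO4_11023, next to GUT1 on the same strand at a distance of 148 bp, had 218, 217 and 218 in the glycerol group, 65.0, 61.9 and 58.0 on d-galUA and 15.9, 27.6 and 19.9 on d-glc. RTO4_11030 had 1270, 1152 and 1305 in the glycerol group, 121, 135 and 121 on d-galUA and 85.3, 95.9 and 120 on d-glc. RTO4_11032 and RTO4_11033 had glycerol means of 190 and 49.5, d-galUA means of 6.56 and 10.1 and d-glc means of 10.7 and 11.4. RTO4_11031, which lies between members, was highest on d-glc, with means of 1.76 on glycerol, 0.434 on d-galUA and 57.2 on d-glc. The members here were interleaved with genes of other patterns.

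**Figure D5:**
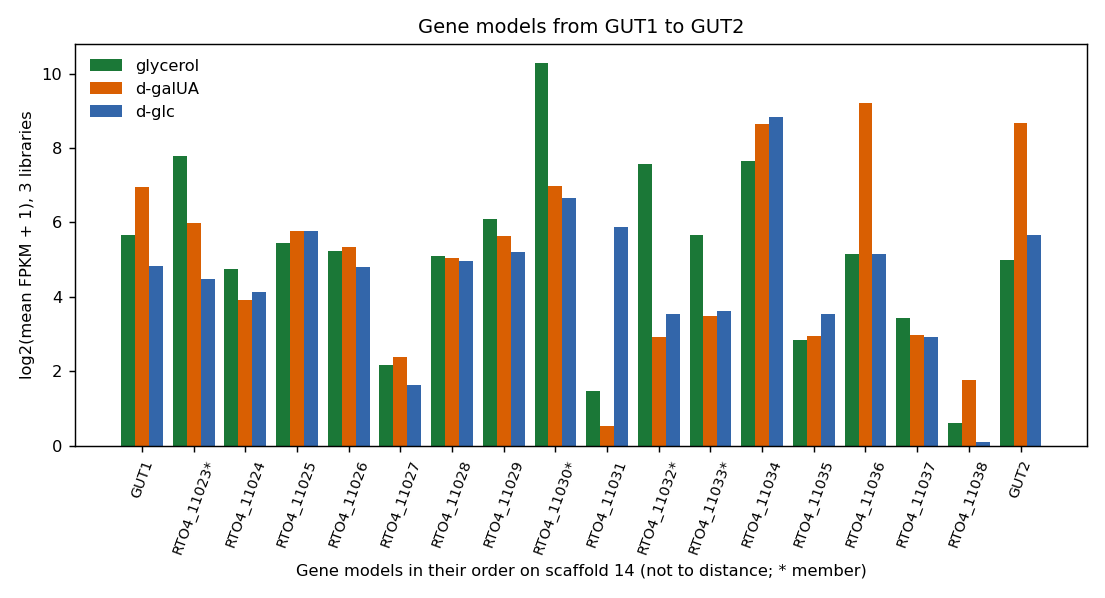
Mean level, as log2(mean FPKM + 1) over 3 libraries, of the 18 gene models from GUT1 to GUT2 on glycerol, d-galUA and d-glc (bars from 0, left to right), in their order along scaffold 14, with members marked by an asterisk. The 4 members stand highest on glycerol, as do RTO4_11024, RTO4_11028, RTO4_11029 and RTO4_11037, which fall short of the ratio of 3. GUT1, GUT2 and RTO4_11036 are among those highest on d-galUA. RTO4_11031, RTO4_11034 and RTO4_11035 are highest on d-glc.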

How the data were processed

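RNA-seq tables of 9 libraries of R. toruloides IFO0880 were used as the authors deposited them. The authors aligned single-end reads of 50 bp using HISAT2 2.1.0 and obtained abundances from StringTie 1.3.3b. The submitters' notes also name bcl2fastq 2.17 and CASAVA. The deposited FPKM is relative to gene length and mapped reads, and the deposited TPM puts every library on a common total. The deposited coverage, the average number of reads over each base of a gene, was used with FPKM to estimate mapped reads. Read counts were not used here, so no count test was run. The treatment of reads shared by several genes is not given in the sources used here.

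Members were found by the rule on group means of FPKM, over 8486 numbered models; 92 models with CAND identifiers were left out, of which 1 met the thresholds. The members and lists were chosen with earlier results of these data known. Tests used limma 3.58.1 in R 4.3.3 on log2(FPKM + 1), a trend of the variance with the mean, and Benjamini-Hochberg adjustment. Because of the 1 added to FPKM, fold changes of low genes are understated. Of 8578 models, 99 were at 0 in every library and were not tested. The script was tested on simulated data. Tables and figures used Python 3.11.15, numpy 2.4.6, pandas 2.3.3 and matplotlib 3.10.9. Ortholog names came from the study's gene table, whose copy holds 1999 genes.

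The genes named are the annotated members, the 15 with the highest glycerol mean, the 15 with the largest log2 difference, the 5 with the largest change between d-galUA and d-glc in each direction, neighbouring members, those beside the ratio of 3, the 3 set aside and genes of the 3 lists. The members singled out for uneven replicates, those lost without 1 library, and those between GUT1 and GUT2 were chosen after their values were seen. Alternatives covered the grouping, the unit, scaling, pseudocounts of 0.1 and 5, filters, the fold criterion, Ballgown's test, the variance trend, the 6 libraries of d-galUA and d-glc alone, the replicate number as a block and each library left out. Group medians, and members above 0 in every glycerol library, were added after seeing the data. Fitness and enzyme data were not analysed here.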

Additional observations from a re-analysis of the deposited data

Results flagged for a closer look

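In the libraries as labelled, the library labelled d-glc replicate 4 stood apart from the other 3 of its label. For the share of TPM held by the members, at 8.48% in that library, the gap to the nearest other library was 0.992 of the whole range of the 4. In 144 of the 154 members that library lay outside the others past Dixon's 95% limit. The rule that chose the members counts it in the glycerol mean and sets that mean at 3 times the d-glc mean or more, so these gaps follow in large part from the choice and are a description. Chance flags about 1 in 20 groups, a rate that does not apply to genes chosen in this way. The gap was 0.985 of the range for RTO4_11952, 0.992 for RTO4_11990, 0.947 for RTO4_12971, 0.987 for RTO4_15438 and 0.864 for RTO4_15544. In all 5 annotated members that library was the high one. The reason for its label was not tested.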

How the results depend on the processing

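Grouped as labelled, 78 genes met the rule, 0 members were called higher between d-galUA and d-glc (0 at an unadjusted p under 0.05 from limma), 417 genes were higher and 359 lower over all genes, 0 genes of the lists were called against d-glc in either direction, and the members' share of TPM on d-glc was 2.65% (SD 3.89). A ratio of 2 gave 314 genes and a ratio of 5 gave 79. Without a fold criterion, 55 members were higher and 31 lower on d-galUA, and over all genes 1798 and 2006. The share of members that were lower was then below that of all genes. Leaving out 1 library gave 151 to 161 genes by the rule, 32 to 36 members higher and 18 to 22 lower on d-galUA, 631 to 764 and 621 to 652 over all genes, and 7 to 8 list genes higher against d-glc, while the list genes lower against d-glc stayed at 2, those lower against d-galUA at 9 and those higher at 0. Single libraries in place of means gave 113 genes. Of 106 single-gene results, 44 changed their call under an alternative, 24 of them with the groups as labelled only. The sign changed in 29, in 24 with the groups as labelled and in 11 under other alternatives, the last all 0.16 or less in size. In 10 of the 29 the adjusted p had been under 0.05, 1 of them called, RTO4_11713. As labelled, their log2 differences between d-galUA and d-glc were -0.029 for it, -0.23 for RTO4_12971, -0.21 for RTO4_15438, -0.59 for RTO4_11030, -0.86 for RTO4_11113, -0.27 for RTO4_8808, -0.41 for RTO4_12263, -0.14 for RTO4_15915, -0.56 for RTO4_11616 and -0.39 for RTO4_11617. The 7 same-numbered pairs of libraries had correlations of deviations of -0.145 to 0.209. Differently numbered pairs were not set beside them, so whether the numbers pair the libraries is not settled. With the replicate block, 34 members were higher and 20 lower, 698 and 628 over all genes, the list counts against d-glc were 7 and 2 and those against d-galUA 0 and 9, and no single-gene call changed. Depth in reads per gene is not given by FPKM, and the 37 members under an FPKM of 5 on both other carbon sources could not be called between them.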
